A study of Mus musculus with 4 samples.

Results

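The genes described here are those of signalling by GABA (gamma-aminobutyric acid): 16 subunits of the GABA-A receptor family, both GABA-B receptor subunits, 3 plasma membrane GABA transporters, and 6 genes of GABA synthesis, vesicle loading and breakdown. They were taken by symbol from a named list, and all 27 listed genes were among the 45703 genes of the deposited count table. Other genes of the same families were not analysed here, so that a leading gene leads only among those listed. The study profiled components of calcium signalling in astrocytes of the mouse cortex by RNA-seq of poly-A RNA. It had 4 cultures, numbered 1 to 4 as in the labels, which form 1 group with no control. Cells came from the frontal cortex of wild-type CD-1 mice (an outbred stock) at postnatal day 4 and grew in a medium that held fetal and horse serum, B27 and EGF at 10 ng/ml. On day in vitro 6 each dish received 200000 cells, and 3 days after that the cells spent 1 h in serum-free Ham's medium before RNA was extracted. No step that selects or sorts astrocytes is given in the labels, and the cells are cultured rather than taken fresh from the brain. The cultures are described as biological replicates, yet nothing in the labels ties them to separate animals, so that a p-value here reflects nothing but how these 4 libraries vary, and that may be technical.

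GABA is the main inhibitory transmitter of the cortex. It opens GABA-A receptors, which are chloride channels built from a mix of alpha, beta and other subunits, and activates GABA-B receptors, which signal through inhibitory G proteins. Astrocytes carry both kinds of receptor, take GABA up through transporters of the SLC6 family, and break it down in mitochondria to succinate. They can also make GABA, either from glutamate or from putrescine.

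The libraries held 37300485 to 42369109 counts, at which 1 read was 0.0236 to 0.0268 CPM (counts scaled to a library total of 1e6). Intervals and floors set by counts cover counting error only, since reads amplified by PCR with no molecular identifier may copy 1 molecule. All 10 astrocyte markers were above 1 CPM in the edgeR test described below, with a sum of 10280 to 11280 CPM per library, led by Fabp7 and Slc1a3. Of 8 markers of the oligodendrocyte lineage, 6 were above 1 CPM, with a sum of 1548 to 1701 CPM. Olig1 led that list at 1249 to 1412 CPM, while Sox10 had 9 counts in all. Markers of mural cells summed to 1892 to 2011 CPM, most of it Acta2 at 1851 to 1973 CPM. Culture 4 stood apart. A chi-square test over genes gave 39.4 to 41.1 per degree of freedom for culture 4 against each other culture, and 2.11 to 3.17 between cultures 1, 2 and 3, so that these 3 nearly repeat each other. Summed markers of meningeal fibroblasts were 491.8 CPM in culture 4, against 1324 to 1409 CPM in the others. Most of that sum was Col1a1 and Col1a2. Col1a1 had 72.4 CPM in culture 4 and 570.1 to 622.6 CPM in the others. Col1a2 had 410.3 CPM in culture 4 and 719.3 to 749.4 CPM in the others. Of the same list, Dcn, Lum and Slc22a6 were at most 0.97 CPM in any library. Markers of microglia summed to 56.0 CPM in culture 4, against 84.1 to 93.5 CPM in the others. Those of proliferating cells summed to 2166 CPM in culture 4, against 1609 to 1637 CPM in the others. In such bulk samples, fewer cells of a type and less RNA per cell cannot be told apart.

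Among the listed genes, 4 GABA-A subunit genes lie side by side on mouse chromosome 5, and their promoters are shown because each of the 4 was expressed in every culture. The promoter of Slc6a11, the leading transporter gene, is shown with them. Each sequence runs from 250 bases before to 50 bases after the start of the gene, 5′ to 3′ on the strand of the gene, in RefSeq of build GRCm38.p6. Capitals mark exact matches on either strand to the GC box (GGGCGG) and the CCAAT box (CCAAT).
Gabrg1, chr5:70842568-70842867, minus strand: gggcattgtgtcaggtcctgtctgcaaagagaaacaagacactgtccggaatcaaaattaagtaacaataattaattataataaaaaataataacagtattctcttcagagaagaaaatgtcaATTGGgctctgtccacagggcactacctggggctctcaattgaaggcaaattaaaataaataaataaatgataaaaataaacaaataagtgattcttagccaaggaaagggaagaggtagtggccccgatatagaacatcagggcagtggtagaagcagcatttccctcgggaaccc
Gabra2, chr5:71095800-71096099, minus strand: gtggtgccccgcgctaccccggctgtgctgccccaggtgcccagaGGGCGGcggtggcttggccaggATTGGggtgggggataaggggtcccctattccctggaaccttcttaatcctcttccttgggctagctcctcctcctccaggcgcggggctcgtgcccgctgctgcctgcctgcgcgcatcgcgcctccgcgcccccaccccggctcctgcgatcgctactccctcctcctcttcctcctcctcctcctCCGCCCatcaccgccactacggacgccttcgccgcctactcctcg
Gabra4, chr5:71658259-71658558, minus strand: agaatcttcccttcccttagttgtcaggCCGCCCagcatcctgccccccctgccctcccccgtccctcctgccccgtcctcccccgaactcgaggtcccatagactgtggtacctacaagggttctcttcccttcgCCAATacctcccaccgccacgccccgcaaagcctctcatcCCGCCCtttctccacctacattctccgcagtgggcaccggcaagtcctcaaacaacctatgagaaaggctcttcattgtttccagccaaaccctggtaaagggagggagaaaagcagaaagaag
Gabrb1, chr5:71657671-71657970, plus strand: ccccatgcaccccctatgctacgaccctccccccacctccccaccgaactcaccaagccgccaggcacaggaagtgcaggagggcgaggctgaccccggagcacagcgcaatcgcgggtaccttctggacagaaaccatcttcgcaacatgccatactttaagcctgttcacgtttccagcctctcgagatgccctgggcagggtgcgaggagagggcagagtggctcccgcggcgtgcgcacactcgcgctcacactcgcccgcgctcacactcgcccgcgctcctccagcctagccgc
Slc6a11, chr6:114130991-114131290, plus strand: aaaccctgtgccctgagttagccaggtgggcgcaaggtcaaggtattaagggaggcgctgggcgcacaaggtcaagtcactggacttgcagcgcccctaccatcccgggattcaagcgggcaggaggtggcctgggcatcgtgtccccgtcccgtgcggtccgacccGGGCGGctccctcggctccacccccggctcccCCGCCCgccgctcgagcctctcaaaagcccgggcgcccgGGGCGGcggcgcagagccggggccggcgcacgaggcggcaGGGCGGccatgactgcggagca

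The windows differ in their base composition. The Slc6a11 window held 32 CpG dinucleotides and 4 GC boxes, those of Gabra2 and Gabrb1 25 CpG each, that of Gabra4 12 and that of Gabrg1 3, against a median of 7 over all 32851 RefSeq windows of this length. As many CpG as at Slc6a11 were found in 9.52% of those windows. Gabra2 and Gabra4 each had 2 GC boxes and 1 CCAAT box, Gabrg1 had 1 CCAAT box, and Gabrb1 held no match to either motif. Over all windows, 35.7% held a GC box and 37.4% a CCAAT box, and the matches describe these letters only. None of the 5 windows had a TATA box (TATAAA, searched on both strands), which 13.6% of all windows had. Gabrb1 had a further RefSeq window at chr5:71699682-71699981, with 9 CpG and no GC, CCAAT or TATA box, which is not shown. RefSeq windows were matched for 24 of the 27 genes, and those of Gabrd, Abat and Maob were not analysed here.

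Of the 27 genes, 14 reached 1 CPM in every library, while 32.2% of the 45703 genes did. A test of each gene's level against 1 CPM, made with edgeR's quasi-likelihood statistics and adjusted over 24811 genes, placed 14 of the 25 members tested above 1 CPM and 10 below it. Of all genes tested, 59.5% were above and 36.5% below, so that the share of members on each side was close to that of the table. The median level was 1.601 CPM over the 27 members and 0.0326 CPM over all genes of the table. The members above 1 CPM were GABA-A subunits of the alpha, beta and gamma kind, 1 GABA-B subunit, 1 transporter, both glutamate decarboxylases and all 3 genes of breakdown and amine oxidation. Gabbr2 was on neither side, and Gabra6 and Gabrp had no count in any library and were not tested. Gabra2, Gabrg3, Gabre, Gad1, Gad2 and Slc32a1 had fractional counts in some library, so that part of their reads may be shared with other features and their values are uncertain to that extent.

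**Figure D1:**
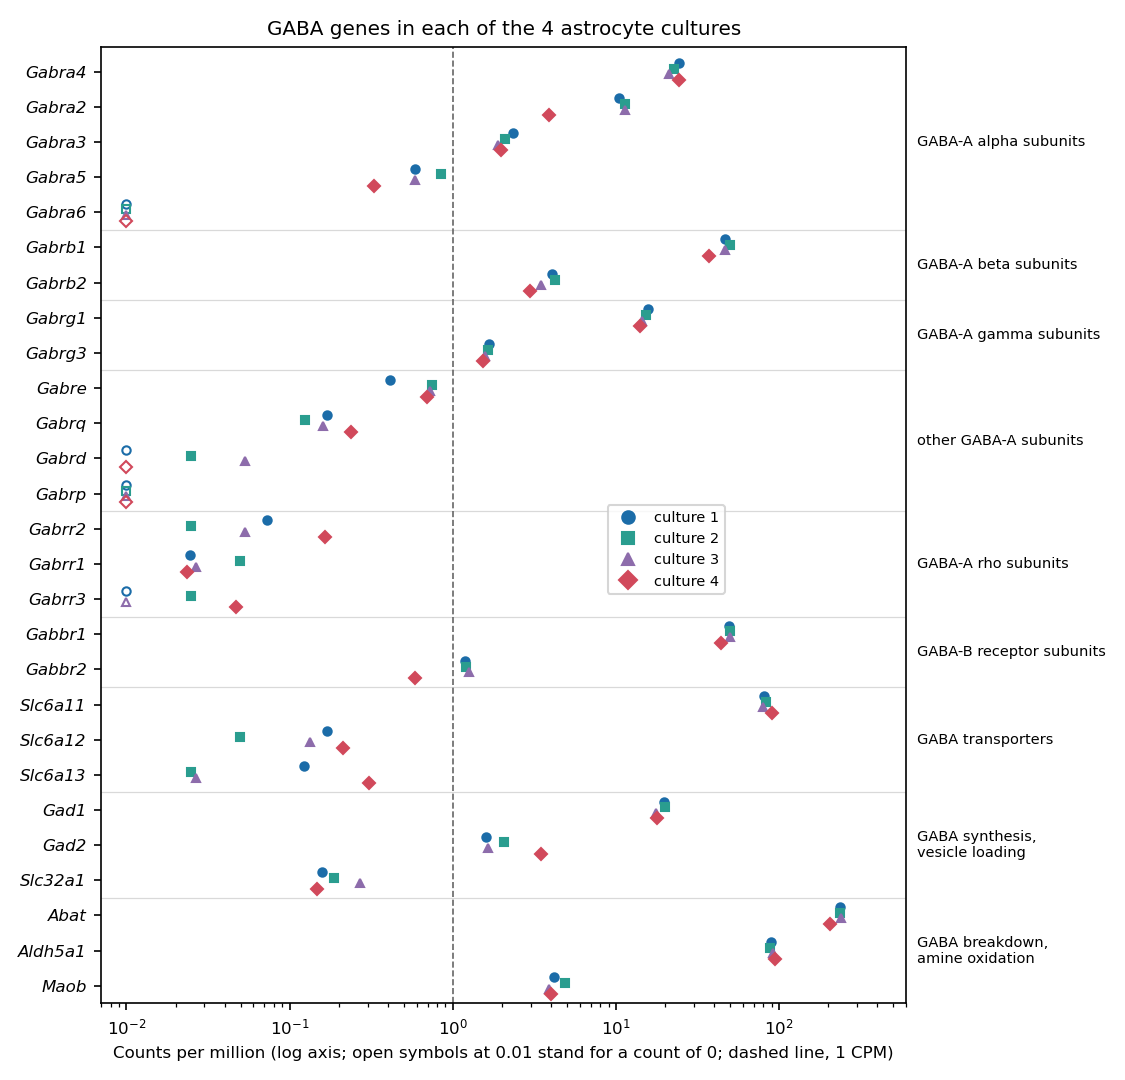
Level of each of the 27 GABA genes in CPM (log axis), with 1 point per culture and the genes grouped by role; open symbols at 0.01 stand for a count of 0 and the dashed line is at 1 CPM. Abat, Aldh5a1 and Slc6a11 are the most abundant, at 79.2 to 240.2 CPM, while the rho subunits and Gabra6, Gabrd and Gabrp lie at or near 0, and culture 4 lies below the others for Gabra2 and Gabbr2.

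The alpha subunits form, with a beta subunit, the site that binds GABA. Gabra4, which encodes the alpha4 subunit of receptors found largely outside synapses, had 24.3, 22.5, 21.1 and 24.5 CPM in cultures 1 to 4. The values lie close together, with culture 4 the highest and culture 3 the lowest. Gabra2, whose product sits in many synaptic receptors, had 3.87 CPM in culture 4, and 10.5, 11.3 and 11.4 CPM in cultures 1, 2 and 3. Culture 4 was thus well below the other libraries, which did not overlap with it. Gabra3, another alpha subunit of synaptic receptors, had 2.34, 2.09, 1.90 and 1.98 CPM in cultures 1 to 4. These 3 genes were above 1 CPM, with edgeR adjusted p-values of 6.32e-12 for Gabra4, 2.23e-06 for Gabra2 and 1.39e-05 for Gabra3.

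Gabra5, known best from receptors outside synapses in the hippocampus, was below 1 CPM, with 0.58, 0.85, 0.59 and 0.33 CPM in cultures 1 to 4 (edgeR adjusted p = 0.0121). Culture 2 was the highest and culture 4 the lowest, and the call was lost without culture 3 (edgeR adjusted p = 0.0541). The span of Gabra5 shares 499 bases with a protein-coding gene on the opposite strand, counted at 92.5 CPM. Reads there cannot be told apart if strand was not used. Gabra6, typical of cerebellar granule cells, had no count, and 3 counts, the limit that a count of 0 allows, correspond to 0.0708 to 0.0804 CPM per library.

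Levels of different genes were compared as RPKM, that is CPM per kilobase of the combined exon length in the table. Gabra4 had the highest RPKM of the alpha genes in each of the 4 libraries, at 5.49 ± 0.38 RPKM, ahead of Gabra2 at 1.65 ± 0.64 RPKM, Gabra3 at 0.51 ± 0.05 RPKM and Gabra5 at 0.14 ± 0.05 RPKM (SD, n = 4). It made up 70.8 ± 7.8% of the summed RPKM of the 5 alpha genes. The distance from Gabra4 to Gabra2 was 1.85 ± 0.83 on the log2 scale (SD, n = 4), or 3.62-fold. It was 3.08 on that scale in culture 4 and 1.30 to 1.63 in the others. No neighbours in this order overlapped in their RPKM ranges. With 4 libraries, an exact sign-flip test of such a ratio cannot reach p = 0.05 (its smallest two-sided p is 2 of 16 sign patterns), so that the order is given with no test.

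Beta subunits are needed for the channel to assemble. Gabrb1 had 37.0 CPM in culture 4, and 46.5, 49.8 and 46.6 CPM in cultures 1, 2 and 3. Gabrb2, which is common in adult neuronal receptors, had 2.95 CPM in culture 4, and 4.04, 4.21 and 3.46 CPM in cultures 1, 2 and 3. Both were lowest in culture 4 and both were above 1 CPM (edgeR adjusted p = 7.25e-12 for Gabrb1 and 6.97e-07 for Gabrb2). Gabrb1 stood at 3.09 ± 0.38 RPKM and Gabrb2 at 0.44 ± 0.07 RPKM (SD, n = 4). The ratio was 7.12-fold, and the size of this lead depends on the length used, since it was 12.3-fold without a length and 3.58-fold with the length of the longest coding transcript in GENCODE. Within the Gabrb1 span the table also counts a pseudogene on the same strand, Gm15616, at 9.34 CPM.

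The gamma subunits set the place of receptors at synapses and their response to benzodiazepines. Gabrg1, whose product is known from glial cells such as Bergmann glia, had 15.8, 15.4, 14.5 and 14.0 CPM in cultures 1 to 4. Gabrg3, a gamma subunit of low abundance in brain, had 1.66, 1.65, 1.57 and 1.53 CPM. Each gene varied little between libraries, and both were above 1 CPM (edgeR adjusted p = 1.92e-11 for Gabrg1 and 0.000163 for Gabrg3). Per length Gabrg1 stood at 1.49 ± 0.08 RPKM and Gabrg3 at 0.16 ± 0.01 RPKM (SD, n = 4), a ratio of 9.13-fold that ran from 8.95-fold to 9.35-fold over the libraries. With GENCODE lengths the ratio was 19.1-fold.

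The remaining GABA-A subunits were low or at the floor. Gabre, which encodes the epsilon subunit, had 0.41, 0.75, 0.72 and 0.69 CPM in cultures 1 to 4 and was below 1 CPM (edgeR adjusted p = 0.00955). That call was lost when cultures 1, 2 and 3 were summed as 1 sample (edgeR adjusted p = 0.0520). Gabrq, for the theta subunit, had 0.12 to 0.24 CPM, and was below 1 CPM as well. Gabrd, for the delta subunit, which often joins alpha4 in receptors outside synapses of neurons, had 3 counts over all 4 libraries, and Gabrp, for the pi subunit, had none. The rho subunits form receptors known mainly from the retina, and Gabrr1, Gabrr2 and Gabrr3 had 5, 13 and 3 counts in all, each below 1 CPM in the test. Among the rho genes no order of levels held in every library.

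Summed by role, the listed alpha genes had 7.80 ± 0.56 RPKM, the beta genes 3.52 ± 0.44 RPKM and the gamma genes 1.66 ± 0.09 RPKM (SD, n = 4). Between the leading genes, Gabra4 exceeded Gabrb1 by 1.79-fold per length, whereas without a length Gabra4 had only 0.515 times the level of Gabrb1. Which of these genes is higher therefore turns on the length.

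Several of the listed genes are neighbours in the genome. On chromosome 5 (GRCm38.p6), Gabrg1 (70751047 to 70842617, minus strand), Gabra2 (70958392 to 71095849, minus strand), Gabra4 (71569734 to 71658308, minus strand) and Gabrb1 (71657921 to 72149572, plus strand) follow each other, and all 4 were above 1 CPM. Gabra4 and Gabrb1 lie head to head, and their annotated spans overlap by 388 bases on opposite strands, where reads of the pair cannot be told apart if strand was not used. Of the neighbours on chromosome X, Gabra3 was above 1 CPM and Gabre and Gabrq were below it. On chromosome 7 Gabrg3 was above and Gabra5 below, and on chromosome 11 Gabrb2 was above and Gabra6 had no count. The neighbours Slc6a12 and Slc6a13 on chromosome 6, and Gabrr1 and Gabrr2 on chromosome 4, were below 1 CPM. Neighbours here are listed genes with a gap of less than 2000000 bases.

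**Figure D2:**
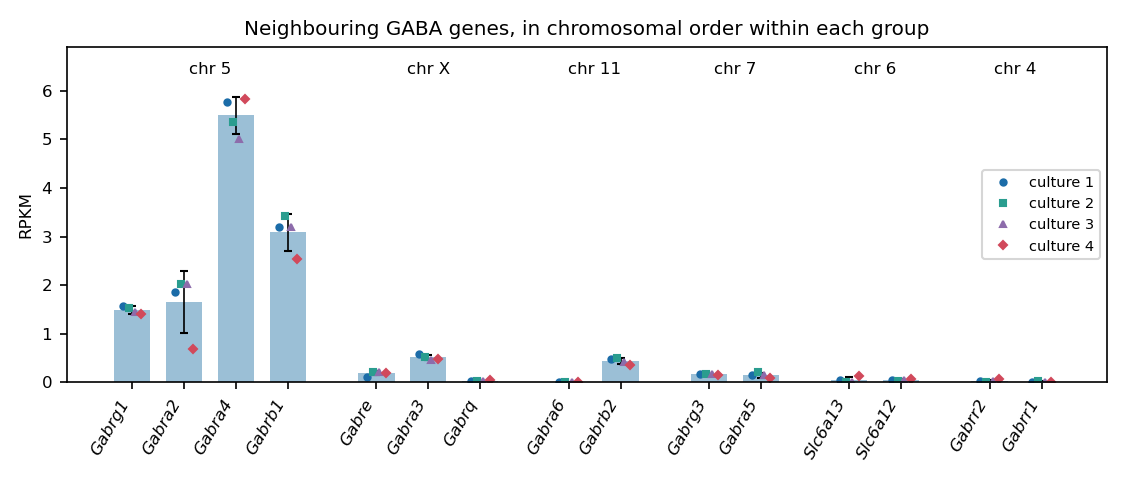
RPKM of the GABA genes that lie near each other, in chromosomal order within each group; bars show the mean over 4 cultures, error bars the SD and points the single cultures. The 4 genes on chromosome 5 are the highest, with means of 1.49 to 5.49 RPKM, and Gabra4 is the tallest bar, while the neighbours on the other chromosomes have means of at most 0.51 RPKM.

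The GABA-B receptor needs both of its subunits, since Gabbr1 encodes the one that binds GABA and Gabbr2 the one that couples to G proteins and brings the pair to the cell surface. Gabbr1 had 44.1 CPM in culture 4, and 49.5, 50.2 and 49.8 CPM in cultures 1, 2 and 3. Gabbr2 had 0.59 CPM in culture 4, and 1.19, 1.20 and 1.26 CPM in cultures 1, 2 and 3. For both genes culture 4 was below the range of the others, and for Gabbr2 it was also below 1 CPM. Gabbr1 was above 1 CPM (edgeR adjusted p = 3.41e-13), while Gabbr2 was not called on either side (log2 of its level over 1 CPM = 0.08, edgeR adjusted p = 0.693) and was above it without culture 4 (edgeR adjusted p = 0.0243). Per length Gabbr1 stood at 8.28 ± 0.50 RPKM and Gabbr2 at 0.19 ± 0.06 RPKM (SD, n = 4). The ratio of these subunits was 71.2-fold in culture 4 and 37.7-fold to 40.04-fold in the others. It is a ratio of transcripts, and the proteins were not measured.

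Of the transporters, Slc6a11 encodes GAT-3, which is found mainly in astrocytes. It had 90.3 CPM in culture 4, and 81.1, 82.8 and 79.2 CPM in cultures 1, 2 and 3, so that culture 4 was the highest by a small margin. It was above 1 CPM (edgeR adjusted p = 5.76e-14) and, at 20.5 ± 1.20 RPKM (SD, n = 4), made up 99.6 ± 0.32% of the summed RPKM of the 3 transporter genes. Slc6a12, for the betaine and GABA transporter BGT-1, had 0.05 to 0.21 CPM. Slc6a13, for GAT-2, which is known from the meninges and liver, had 0.31 CPM in culture 4 and 0.02 to 0.12 CPM in the others. Both were below 1 CPM (edgeR adjusted p = 6.05e-05 for Slc6a12 and 0.000683 for Slc6a13), and the RPKM ranges of these neighbours overlapped. The mean CPM of Slc6a13 moved 2.08-fold when culture 4 was left out.

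Both glutamate decarboxylases, which make GABA from glutamate and are used as markers of inhibitory neurons, were above 1 CPM. Gad1, for GAD67, had 19.8, 20.1, 17.6 and 17.95 CPM in cultures 1 to 4 (edgeR adjusted p = 1.14e-11). Gad2, for GAD65, had 3.46 CPM in culture 4, and 1.61, 2.07 and 1.64 CPM in cultures 1, 2 and 3 (edgeR adjusted p = 0.000720). Gad1 was alike in all libraries, while Gad2 was highest in culture 4. Slc32a1, for the vesicular GABA transporter VGAT, which fills synaptic vesicles, had 0.15 to 0.27 CPM and was below 1 CPM (edgeR adjusted p = 2.74e-05). Gad1 made up 92.6 ± 2.3% of the summed RPKM of these 3 genes, and exceeded Gad2 by 9.20-fold in culture 4 and by 17.1-fold to 21.9-fold in the others. Gad1 shares 2055 bases of its span with the antisense gene Gad1os, counted at 2.05 CPM, and it is not stated whether the counting used strand.

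Since decarboxylases are neuronal markers, genes of interneurons and of neurons in general were read beside them. Of 10 interneuron markers, the transcription factors Dlx1 and Dlx2 were above 1 CPM, at 9.73 to 12.7 CPM and 13.2 to 15.5 CPM. The remaining 8 were at most 1.19 CPM in any library, and Vip, Lhx6, Dlx5 and Dlx6 had 4, 5, 9 and 4 counts in all. Of 9 neuronal markers, Map2, Stmn2, Tubb3 and Syt1 were above 1 CPM, while Rbfox3, Snap25 and Slc17a7 were below it and Slc17a6 had 2 counts. Nefl was not called on either side, with 0.35 CPM in culture 4 and 1.19 to 1.21 CPM in the others. Dlx1 and Dlx2 together had 28.1 CPM in culture 4 and 23.4 to 25.5 CPM in the others, while the remaining 8 summed to 2.53 CPM in culture 4 and to 2.82 to 3.39 CPM in the others. The neuronal markers summed to 374.1 CPM in culture 4 and to 390.4 to 403.3 CPM in the others. Most of that sum was Map2, at 201.5 to 222.7 CPM, and Stmn2, at 142.3 to 153.7 CPM. Tubb3 had 7.53 CPM in culture 4 and 18.9 to 20.7 CPM in the others. The part of cells with these interneuron and neuronal markers in the levels of Gad1 and Gad2 was not tested.

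Abat encodes GABA transaminase, which turns GABA into succinic semialdehyde, and was the most abundant gene of the list both in CPM and in RPKM. It had 205.1 CPM in culture 4, and 235.5, 234.8 and 240.2 CPM in cultures 1, 2 and 3. Aldh5a1, for the dehydrogenase that turns succinic semialdehyde into succinate, had 94.0 CPM in culture 4, and 89.1, 87.5 and 92.2 CPM in cultures 1, 2 and 3. Abat was thus lowest in culture 4 and Aldh5a1 highest, both by small margins. Maob, for monoamine oxidase B, which acts in the route from putrescine to GABA in astrocytes, had 4.19, 4.86, 3.89 and 3.99 CPM in cultures 1 to 4. All 3 were above 1 CPM, with edgeR adjusted p-values of 8.07e-15 for Abat, 1.67e-14 for Aldh5a1 and 6.61e-08 for Maob. Abat ranked 786 and Aldh5a1 2656 among the 45703 genes by mean CPM. Per length they stood at 49.4 ± 3.47 and 16.1 ± 0.52 RPKM, against 1.75 ± 0.18 RPKM for Maob (SD, n = 4), and Abat was ahead of Aldh5a1 by 3.07-fold. Slc6a11 was above Aldh5a1 in RPKM in each library but below it in CPM in each, so that their order turns on the length.

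Across steps, the genes of breakdown and amine oxidation summed to 67.2 ± 3.19 RPKM (SD, n = 4). That sum includes the 1.75 RPKM of Maob, although Maob acts in the putrescine route to GABA. The transporters summed to 20.6 ± 1.26 RPKM and the synthesis and vesicle genes, without Maob, to 3.66 ± 0.20 RPKM (SD, n = 4). Abat exceeded Gad1 by 14.6-fold, with 13.7-fold in culture 4 and 14.1-fold to 16.4-fold in the others, and by 8.78-fold with GENCODE lengths. It exceeded Slc6a11 by 2.41-fold. These are levels of transcripts and not rates of synthesis, uptake or breakdown.

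The spread between cultures was read gene by gene. Over the 17 members that passed edgeR's filter on low counts, the median biological coefficient of variation (BCV) was 0.115, beside 0.0941 for all 17105 genes that passed. The largest values were 0.349 for Gabra2, 0.274 for Gad2 and 0.246 for Gabbr2, and the smallest were 0.0604 for Aldh5a1 and 0.0663 for Slc6a11. Without culture 4 the median over members was 0.0273 and that over all genes 0.0255. Of the 15 members with a mean of at least 1 CPM, Gabra2 and Gabbr2 were over 1.5-fold lower in culture 4 than in the mean of the others, while 5.73% of 15217 such genes were. Gad2 was over 1.5-fold higher in culture 4, as were 2.39% of those genes. The differences were -1.51 on the log2 scale for Gabra2, -1.04 for Gabbr2 and 0.96 for Gad2, with no test, since culture 4 is 1 library. In none of cultures 1, 2 and 3 did any of these 15 members differ by that much from the mean of the other libraries. Culture 4 is also the library with the lower fibroblast and microglial sums and the higher proliferation sum given above. Of the 10 astrocyte markers, 5 were lower in culture 4 than in the mean of the others and 5 were higher. Gfap was among the lower, with 779.7 CPM in culture 4 and 1498 to 1555 CPM in the others. So was S100b, with 6.11 CPM in culture 4 and 12.7 to 14.5 CPM in the others. Slc1a2 was among the higher, with 368.0 CPM in culture 4 and 285.2 to 311.0 CPM in the others. The endothelial sum was 7.62 CPM in culture 4 and 13.5 to 14.5 CPM in the others. In that sum Flt1 had 1.53 CPM in culture 4 and 6.06 to 6.58 CPM in the others. Cldn5, Cdh5 and Tek had 1, 19 and 8 counts in all. The part of these markers and sums in the differences of the GABA genes was not tested.

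**Figure D3:**
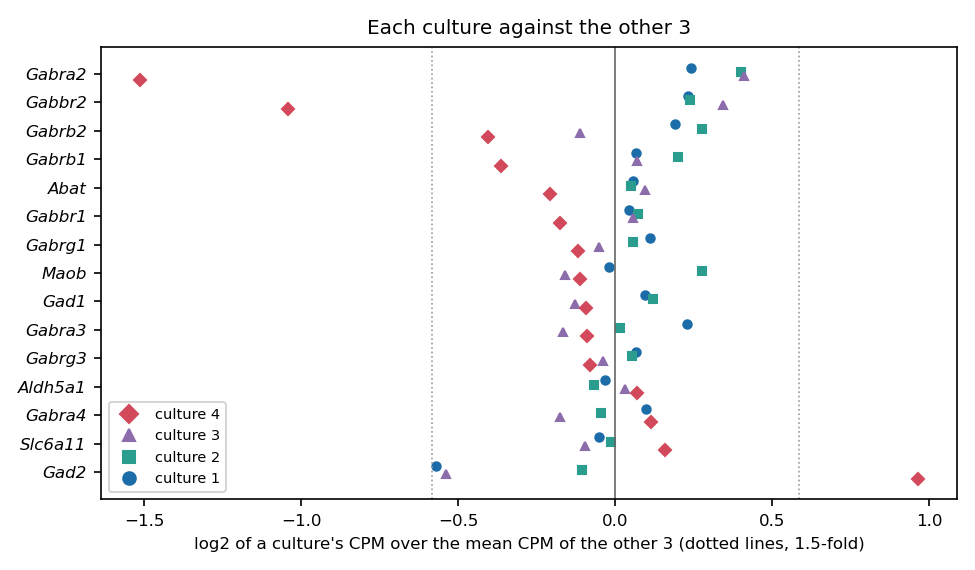
Log2 of the CPM of each culture over the mean CPM of the other 3, for the 15 GABA genes with a mean of at least 1 CPM; dotted lines mark 1.5-fold. Points of culture 4 lie beyond the lines on the left for Gabra2 (-1.51) and Gabbr2 (-1.04) and on the right for Gad2 (0.96), and no other point lies beyond them.

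Around these genes stand those that assemble receptors, carry their signal and supply ligands. The counts of each list that follows are to be read beside all genes tested, of which 59.5% were above 1 CPM and 36.5% below. Listed genes with fewer than 3 counts in all were not tested but remain in the number listed. The lists of GABA-B receptor partners and of endozepine and neurosteroid supply had a share above 1 CPM close to that of all genes tested. Of 5 related SLC6 carriers, 2 were not tested and the other 3 were above 1 CPM. Of 17 genes of GABA-A receptor assembly, anchoring and trafficking, 16 were above 1 CPM and none below, with a median of 81.3 CPM. The most abundant were Ubqln1, whose product slows the degradation of receptor subunits, at 260.9 ± 3.26 CPM, and Clptm1, which holds subunits back in the endoplasmic reticulum, at 208.0 ± 14.1 CPM (SD, n = 4). Shisa7, for an auxiliary subunit of the receptor, was not called on either side at 0.57 to 1.31 CPM. Of 12 genes of GABA-B receptor partners, 7 were above and 5 below, with a median of 12.8 CPM. The G protein genes Gnai2 and Gnao1 led at 890.5 ± 34.0 and 583.0 ± 58.45 CPM (SD, n = 4). The genes below were Kctd8, an auxiliary subunit, at 0.31 to 0.56 CPM, and Kcnj3, Kcnj5, Kcnj6 and Kcnj9, the potassium channels that the receptor opens in neurons, at 0.02 to 0.51 CPM.

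Of 8 genes of the putrescine route, 7 were above 1 CPM, and the median was 89.4 CPM. Odc1, which makes putrescine from ornithine, led at 314.7 ± 6.46 CPM, followed by the aldehyde dehydrogenase Aldh2 at 233.0 ± 14.4 CPM (SD, n = 4), and Aoc1, a diamine oxidase, had no count. Aldh1a1 and Maoa were picked after their values were seen. The aldehyde dehydrogenase gene Aldh1a1 had 63.95 CPM in culture 4, and 142.2 to 145.9 CPM in the others, which did not overlap with it. Maoa, for monoamine oxidase A, had 100.8 to 117.3 CPM and exceeded Maob by 15.4-fold per length and by 26.5-fold without a length. The list of succinic semialdehyde and gamma-hydroxybutyrate handling also held genes of succinyl-CoA ligase, which acts on neither compound. All 5 genes on it were above 1 CPM, with a median of 125.2 CPM set by a gene of this ligase. Its subunit genes Sucla2 at 184.3 ± 11.2 CPM and Suclg1 at 158.5 ± 7.93 CPM (SD, n = 4) led the list. Akr7a5 and Adhfe1, for enzymes that act on these compounds, had 32.4 to 36.5 and 35.4 to 56.4 CPM. These genes were also picked after their values were seen.

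Of 5 related SLC6 carriers (median 31.5 CPM), 3 were above 1 CPM, led by the taurine transporter Slc6a6 at 164.3 ± 14.1 CPM and the creatine transporter Slc6a8 at 118.7 ± 24.7 CPM (SD, n = 4), while Slc6a20a and Slc6a20b had no count. Of 10 chloride cotransporters and their kinases, which set the chloride gradient that GABA-A receptors work on, 8 were above and 1 below, with a median of 44.3 CPM. The kinase gene Wnk1 led at 696.6 ± 15.2 CPM, followed by the cotransporter Slc12a4 at 257.2 ± 10.4 CPM (SD, n = 4). Slc12a3, best known from the kidney, was below at 0.12 to 0.27 CPM, and Slc12a1, also renal, had no count. Of 11 genes that supply endozepines and neurosteroids, which tune GABA-A receptors, 6 were above and 4 below, with a median of 25.2 CPM. Dbi, the source of endozepines, had 1081 to 1162 CPM, and Akr1c14, which makes neurosteroids that enhance the receptor, had 190.9 ± 15.2 CPM (SD, n = 4). The genes below were Acbd7, Star, Cyp11a1 and Srd5a2, with Star the highest at 0.68 to 0.90 CPM, and Hsd3b2 had no count. Bestrophin channels have been described as a path for tonic GABA release from astrocytes, and Best1 and Best3 were below 1 CPM, with 6 and 38 counts in all, while Best2 had 1 count.

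**Figure D4:**
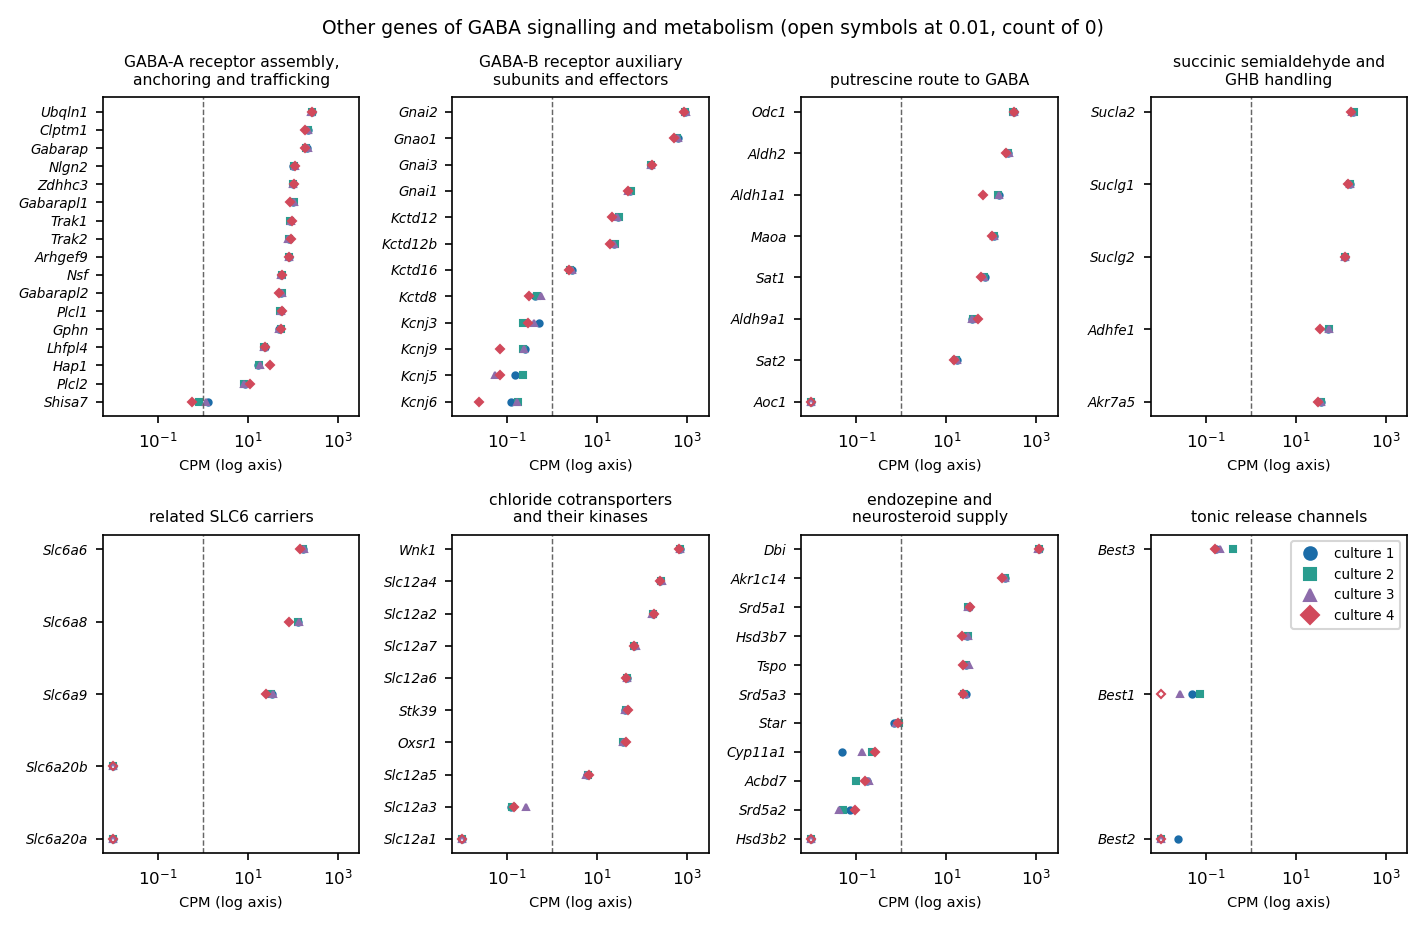
Level of the other genes of GABA signalling and metabolism in CPM (log axis), 1 panel per list and 1 point per culture; open symbols at 0.01 stand for a count of 0 and dashed lines mark 1 CPM. Nearly all genes of receptor assembly and of the succinic semialdehyde and putrescine lists lie right of the line, while the Kcnj channels and bestrophins lie left of it.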

How the data were processed

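Poly-A RNA of 4 astrocyte cultures was sequenced from libraries made with a stranded kit, per the labels' protocols. Tools named per the submitters' processing notes are STAR 2.7.2b, featureCounts 1.6.4 from Subread, cutadapt 1.17 and bcl2fastq 2.20.0.422, with GRCm38.p6 as the build. Their settings, that for strand among them, are not stated. The authors deposited estimated counts per gene: 31.7% of the values above 0 were not whole numbers (no tolerance), and no normalization is stated. Of the members, 21 had whole counts in every library, while Gabra2, Gabrg3, Gabre, Gad1, Gad2 and Slc32a1 had some that were not and may share reads with other features, so that their values are uncertain. CPM were computed from the raw library sums (37300485 to 42369109 counts), and RPKM with the deposited exon length, which covers all annotated exons.

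Levels were tested against 1 CPM with edgeR 4.0.16 in R 4.3.3, with an intercept as the only term, on counts rounded to whole numbers. All 24811 genes with at least 3 counts over the libraries entered, two-sided, with Benjamini-Hochberg adjustment and a threshold of 0.05. The package's own test needs a second term, so its quasi-likelihood F statistic was computed from the fitted deviances, with no p smaller than the Poisson one. The procedure was tested on simulated data in which no library stood apart. Culture 4 does so here, and p-values for such a set of libraries were not checked. BCV came from edgeR with TMM normalization and its default filter. DESeq2 1.42.0, other normalizations, filters, levels and lengths and the omission of each culture were alternatives, and the GENCODE lengths were chosen after seeing the data. Every member is named. Of other pathway genes, the 2 with the highest mean CPM of each list and those not called above 1 CPM are named, apart from those said to be picked later. A marker gene of 1 cell type list is not reported here. Members and lists were chosen with earlier results of these data known. Promoter sequences are from RefSeq for GRCm38.p6, and the coordinates of all 27 members in the table were the same as in RefSeq.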

Additional observations from a re-analysis of the deposited data

Results flagged for a closer look

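For 6 of the 23 members with over 3 counts, 1 culture lay far from the other 3, by the gap to the nearest of them divided by the whole range. Chance alone gives about 5% of genes such a gap, and 15.2% of the 15217 genes with a mean of at least 1 CPM had it, beside 4 of the 15 members of that level. Culture 4 was the far sample for 4 of the members. Gabra2 had 3.87 CPM in culture 4 and 10.5 to 11.4 CPM in the others, a gap of 0.88 of the range. Gabbr2 had 0.59 CPM in culture 4 and 1.19 to 1.26 CPM in the others (0.899 of the range). For Gabbr1 the values were 44.1 CPM in culture 4 and 49.5 to 50.2 CPM in the others (0.872 of the range), and for Abat 205.1 CPM in culture 4 and 234.8 to 240.2 CPM in the others (0.845 of the range). Gabre was low in culture 1, at 0.41 CPM beside 0.69 to 0.75 CPM (0.833 of the range), and Gabrr1 was high in culture 2, at 0.05 CPM beside 0.02 to 0.03 CPM (0.878 of the range), which is a difference of 1 count.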

How the results depend on the processing

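No paired analysis was possible because there is 1 group and no contrast. The counts of members expressed and above 1 CPM stayed within 1.5 times of their values under every alternative tried. With edgeR's default filter, 2 members were below 1 CPM, since that filter takes low genes out of the test. The median BCV of the members ran from 0.0273 to 0.141 when 1 culture was left out, the lowest without culture 4, and was 0.228 with cultures 1, 2 and 3 summed as 1 sample. Against 2 CPM the level of Gabbr2 was -0.92 and that of Gabrg3 -0.32 on the log2 scale, and against 0.5 CPM that of Gabra5 was 0.23 and that of Gabre 0.36, which follows from the moved level itself. In each role group except the rho subunits, the same gene led in every library with and without a length, with GENCODE lengths and without any 1 culture. The precision of the lowest genes is limited by depth, since 1 read is worth up to 0.0268 CPM, and that of all genes by 4 libraries of which 3 are close to repeats.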
